A study of Mus musculus with 20 samples.

Results

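The lungs of 5 C57BL/6 mice given 13.5 Gy of thoracic radiation were compared with those of 5 untreated mice, in each case without flaxseed in the diet. These 10 animals were chosen by their treatment label, out of 20 mice in the whole series. The irradiated mice were killed 48 h after the dose. The other 10 mice received a diet with 10% flaxseed for 21 days, 5 of them with the same dose and 5 without it, and they serve below as a separate pair in which the dose can be read again. All mice were of the C57BL/6 strain, an inbred laboratory line, and whole lung was taken from each. Sex, age, the diet of the mice without flaxseed and any sham handling of the unirradiated mice were not stated in the labels.

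Ionising radiation breaks DNA, and the p53 pathway then stops cell division, starts repair or leads to cell death. In the lung the endothelium and the cells lining the alveoli are damaged, lymphocytes are lost early because they die readily after irradiation, and inflammation and scarring of the tissue can follow over weeks to months. C57BL/6 mice are known as a strain prone to lung fibrosis after thoracic irradiation. A time of 48 h lies in the early phase, before these late changes.

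Total RNA of each lung was labelled with the radioactive isotope 33P and hybridised to 1 array of the MA11 type with 9600 spots, and for each spot the files give the median of its signal and of the background around it. The spots carry running numbers such as gene0020, and no table used here pairs these numbers with genes. The lung label could therefore not be checked against marker genes, and no spot below is given a gene, a function or a sequence. Because whole tissue was measured, fewer cells of a type and less RNA per cell cannot be told apart.

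The arrays of untreated and irradiated mice without flaxseed overlapped in brightness. Median spot signal ranged from 123 to 210 in untreated and from 111 to 209 in irradiated mice, and median local background from 22.6 to 31.5 and from 19.7 to 35.8. None of 7 measures of whole arrays passed an exact two-sided permutation test, in which the smallest possible p is 0.00794 (lowest p = 0.151, adjusted p = 0.556, for the interquartile range of log2 signals). Correlations of log2 levels between 2 untreated mice were 0.974 to 0.978, between 2 irradiated mice 0.974 to 0.981, and between an untreated and an irradiated mouse 0.964 to 0.981. The median SD per spot between mice was 0.18 in both groups. The arrays of the flaxseed pair did not overlap in brightness. Their median signal was 187 to 215 on flaxseed alone and 111 to 167 after both treatments. Median signal over background was 158 to 184 and 84.6 to 138. The tests of whole arrays were not run for this pair, and whether its brightness bears on its spot differences was not tested.

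Few spots passed the test for radiation without flaxseed, and most of those that passed were lower. Of 9600 spots, 5 passed limma at an adjusted p under 0.05, which is 0.0521% of the array, with 4 lower (0.0417%) and 1 higher (0.0104%) in irradiated mice. Levels are log2 intensities after normexp background correction with an offset of 50 and quantile normalisation, and the offset makes fold changes of dim spots too small. The lower spots were gene2313, gene0020, gene3606 and gene6080, and the higher one was gene2754. Leaving out 1 mouse moved the count between 2 and 17. The highest count came without untreated replicate 4 and 10 spots passed without radiation replicate 3. There were 3 when untreated replicate 1 or radiation replicate 5 was left out. There were 2 when the mouse left out was untreated replicate 2, 3 or 5, or one of the irradiated replicates 2 and 4.

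**Figure D1:**
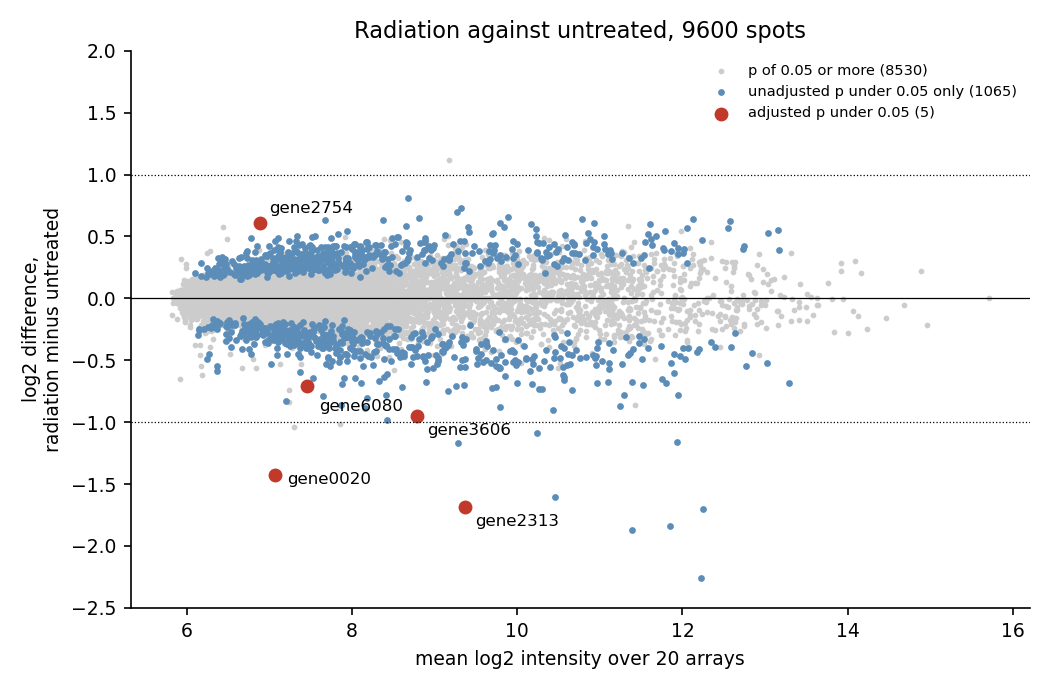
Log2 difference between irradiated and untreated mice (vertical axis) against the mean log2 intensity over 20 arrays (horizontal axis), 1 point per spot; dotted lines mark a 2-fold difference. The 5 spots with an adjusted p under 0.05 are large red points, and a few bright spots lie lower than any of these without passing.

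The spot gene6080 had the lowest p of the array. Its log2 levels were 7.71, 7.68, 7.57, 7.78 and 7.82 in untreated replicates 1 to 5. In the irradiated mice they were 6.96, 6.98, 7.05, 6.96 and 7.06. Every irradiated mouse lay below every untreated mouse, and the irradiated mice differed from each other by little more than 0.1. The spot fell by 0.71 on the log2 scale (SE 0.0757, limma adjusted p = 5.24e-05), a 1.64-fold change with a 95% interval of 1.47 to 1.82. Before normalisation its signal was 128 to 228 over a local background of 17.0 to 28.8 in untreated mice. In irradiated mice the signal was 67.8 to 113 over 14.3 to 28.1, so it was still above background on all 5 arrays.

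On flaxseed gene6080 was lower after radiation too. Its levels were 8.23, 8.33, 8.02, 8.04 and 8.06 on flaxseed alone and 6.97, 6.80, 7.05, 6.99 and 6.95 after both treatments. The difference there was -1.19 on the log2 scale (SE 0.0757, limma adjusted p = 1.11e-08). Mean levels after radiation were 7.00 ± 0.05 without and 6.95 ± 0.09 with flaxseed (SD, n = 5 each). The radiation differences of the diets differed by -0.48, which did not pass (SE 0.107, 95% interval -0.70 to -0.25, limma adjusted p = 0.0718). The call without flaxseed was kept when any 1 of the 10 mice was left out and in all 13 other settings, with differences from -1.14 to -0.37.

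The spot gene0020 was the other one whose call did not depend on any single mouse. Untreated replicates 1 to 5 had log2 levels of 7.98, 7.59, 7.90, 7.69 and 8.25. Irradiated mice had 6.44, 6.50, 6.58, 6.51 and 6.23. The groups did not overlap, and the spot fell by 1.43 (SE 0.154, limma adjusted p = 5.24e-05), or 2.69-fold with a 95% interval of 2.16 to 3.37. Its signal was 126 to 285 in untreated mice. After radiation it was 33.4 to 68.5, which is 1.59 to 2.94 times the local background, so the low levels were close to the background. The call held in all 10 fits leaving out 1 mouse. With plain subtraction of the background the difference was -2.73 and did not pass (SE 0.723, limma adjusted p = 0.212). Nor did it on the authors' deposited intensity table (-2.66, SE 0.968, limma adjusted p = 0.392). All groups share 1 spread in these fits, and replicate 1 on flaxseed alone held the constant 0.002 in that table. Untreated mice had 1.03 to 1.90 there and irradiated mice 0.136 to 0.280. In the fit of the 10 arrays without flaxseed the call was kept (-1.39, SE 0.122, limma adjusted p = 0.00100).

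The same spot went the other way on flaxseed. Its levels were 5.87, 6.01, 6.51, 6.57 and 6.62 in mice on flaxseed alone and 7.42, 7.82, 7.62, 7.83 and 7.30 in mice given both, without overlap. On flaxseed alone the spot was above its local background on 4 of 5 arrays. Replicate 1 had a signal of 30.1 under a background of 36.7, and replicate 2 was at 1.18 times its background, so these low levels are set in part by the offset. The radiation difference on flaxseed was 1.28 (SE 0.154, limma adjusted p = 0.000156). Its size was 0.58 when the offset was 200 and 4.02 on the authors' deposited intensity table. In that table replicate 1 on flaxseed alone held the constant 0.002 and replicate 2 held 0.0250, so the 4.02 is set in part by the constant. Tested directly, the differences of the diets were 2.71 apart (SE 0.217, limma adjusted p = 7.04e-07). The gap ranged from 1.29 to 6.68 over 11 other settings and passed in all 11 and in the 20 fits leaving out 1 mouse (limma, highest adjusted p = 0.0291). For the interaction 11 of 9600 spots passed, or 0.115%, and gene0020 was the only one of the 5 called spots among them.

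The spot gene2313 showed the largest change among the calls. Untreated mice had log2 levels of 9.99, 9.61, 10.33, 9.87 and 10.18, and irradiated mice 8.31, 8.21, 8.74, 8.66 and 7.63. The groups were separate, with radiation replicate 5 the lowest. The spot fell by 1.69 (SE 0.304, limma adjusted p = 0.0380), or 3.22-fold with a 95% interval of 2.07 to 4.99. In the mice on flaxseed its levels were 10.29, 10.09, 11.19, 10.30 and 10.76, against 8.59, 9.95, 8.02, 7.94 and 8.62 after both treatments. The second mouse given both treatments kept a high level, but the groups did not overlap, and the difference was -1.90 (SE 0.304, limma adjusted p = 0.000985). Without flaxseed the call held in 2 of 10 fits that left out 1 mouse, namely those without untreated replicate 4 or radiation replicate 3. It was lost with plain subtraction (limma adjusted p = 0.0837), at offset 200 (0.0970) and on the authors' deposited intensity table (0.154).

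In gene3606 the untreated mice were close together and the irradiated mice were spread. Levels were 9.05, 9.18, 9.21, 9.21 and 9.34 in untreated mice and 8.66, 7.85, 8.40, 8.35 and 7.96 in irradiated mice. All irradiated mice were below all untreated mice, and the spot fell by 0.95 (SE 0.168, limma adjusted p = 0.0379), or 1.94-fold with a 95% interval of 1.52 to 2.47. On flaxseed the levels were 9.66, 8.75, 9.06, 8.51 and 9.04, and 8.50, 8.77, 8.71, 8.73 and 8.70 after both treatments. These groups overlapped, and the difference of -0.32 did not pass (SE 0.168, limma adjusted p = 0.286). The difference between the diets did not pass either (0.63, 95% interval 0.13 to 1.13, limma adjusted p = 0.262). Without flaxseed the call held in 3 of 10 fits leaving out 1 mouse, those without untreated replicate 4, radiation replicate 1 or radiation replicate 3. It was lost with plain subtraction (limma adjusted p = 0.0837), at offset 200 (0.0847) and on the authors' deposited intensity table (0.116).

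One spot rose. Levels of gene2754 were 6.51, 6.42, 6.62, 6.60 and 6.60 in untreated mice and 7.29, 7.01, 7.18, 7.44 and 6.88 in irradiated mice. All irradiated mice were higher, by 0.61 on the log2 scale (SE 0.108, limma adjusted p = 0.0379), or 1.52-fold with a 95% interval of 1.30 to 1.78. This is a dim spot, with signals of 38.6 to 66.5 in untreated mice, 1.90 to 2.97 times their local background, and of 61.5 to 189 in irradiated mice. On flaxseed the levels were 6.85, 6.57, 6.84, 6.88 and 6.55, and 7.20, 7.23, 6.85, 7.02 and 7.24 after both treatments. There 4 of the 5 mice given both lay above all mice on flaxseed alone and 1 did not, and the spot was higher by 0.37 (SE 0.108, limma adjusted p = 0.0344). Its call without flaxseed held in 2 of 10 fits leaving out 1 mouse, those without untreated replicate 4 or radiation replicate 5. It was lost with an offset of 200 (limma adjusted p = 0.0847), with cyclic loess (0.0566) and on the 10 arrays alone (0.0707).

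The next spot on the higher side, gene1615, had levels of 9.28, 8.82, 9.16, 8.75 and 8.87 in untreated mice. In irradiated mice they were 9.82, 9.50, 9.32, 10.09 and 9.64. The groups were separate by a narrow margin, and the difference of 0.70 did not pass (SE 0.148, limma adjusted p = 0.0823). On flaxseed the difference was 0.38 (SE 0.148, limma adjusted p = 0.130), which did not pass either. It was called in 1 of 10 fits leaving out 1 mouse, the one without radiation replicate 3, and in 0 of 13 other settings (limma, adjusted p 0.0548 to 0.260).

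**Figure D2:**
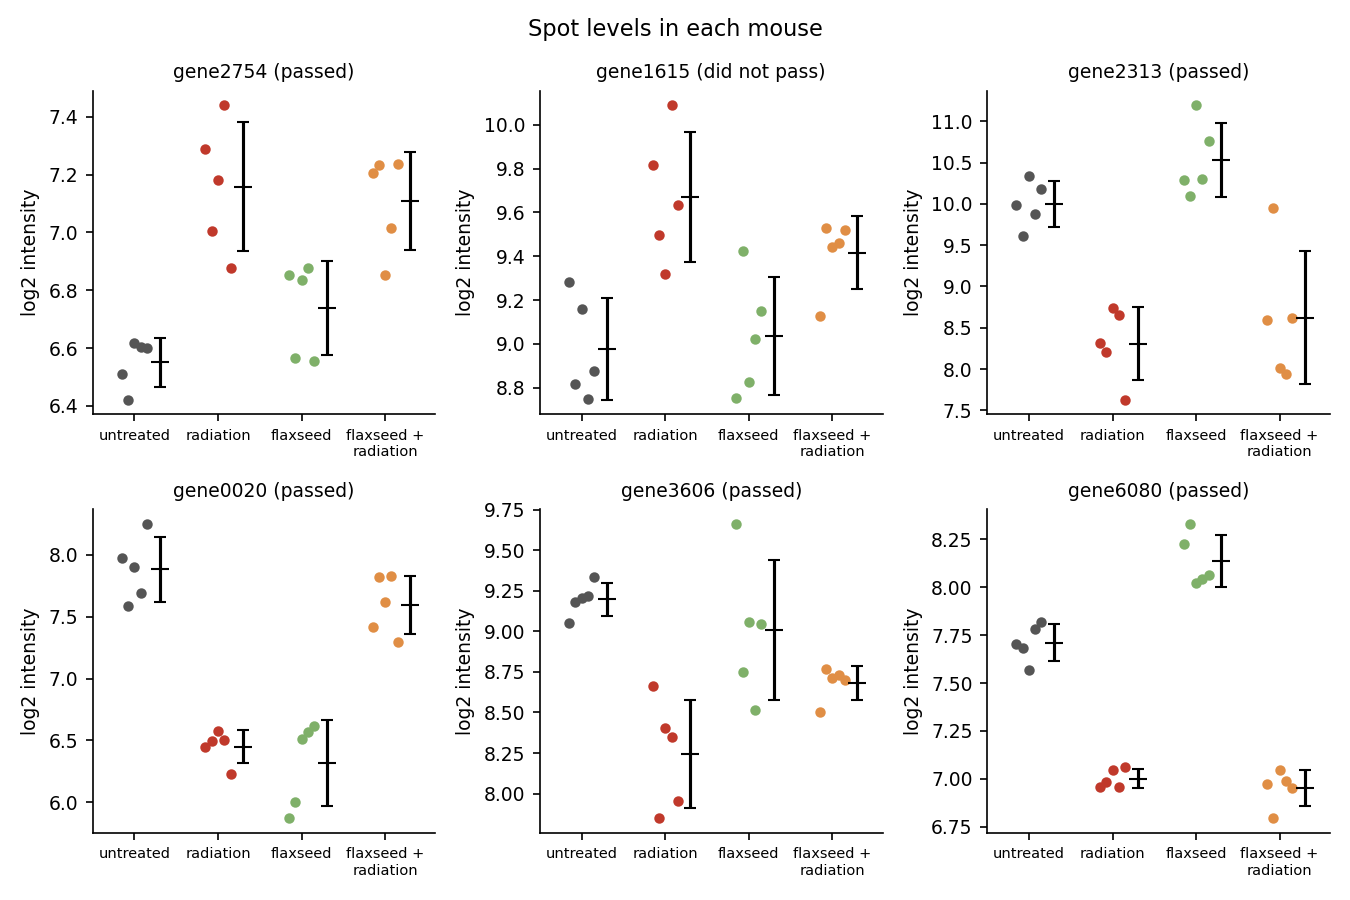
Log2 intensity of 6 spots in each of 20 mice (points, 5 per group), with the group mean and SD beside them (bars). The irradiated mice lie apart from the untreated mice in each panel, gene0020 goes the opposite way on flaxseed, and gene6080 lies at 6.80 to 7.06 after radiation on both diets.

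In the main setting 13 spots differed by at least 2-fold (0.135% of 9600), 12 of them lower (0.125%) and 1 higher (0.0104%), and 2 of the lower ones, gene2313 and gene0020, passed the test. This split depended on the treatment of the background, which sets the size of differences in dim spots. With plain subtraction 117 spots were at least 2-fold lower and 76 higher, and there were 277 lower and 278 higher ones on the authors' deposited intensity table. Without background correction there were 17 lower and 2 higher, with an offset of 10 there were 22 and 1, and with an offset of 200 there were 7 and 0. Of the 12, 9 were bright, among the brightest 2400 by mean level, and these 9 are described together because they were picked by this same difference. Their differences ran from -2.26 to -1.09, with SEs of 0.24 to 0.44 and limma adjusted p from 0.0380 to 0.237. The mean log2 level of the 9 spots was 11.73, 11.48, 11.92, 11.12 and 12.01 in untreated replicates 1 to 5. In irradiated mice it was 9.93, 10.32, 10.51, 10.06 and 9.44. Every irradiated mouse was thus below every untreated mouse, which the choice of the spots favours.

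The difference that picked the spots used no array of the mice on flaxseed, but the brightness behind the choice was the mean over all 20 arrays, which were also normalised and fitted together. The same 9 spots resulted when brightness was taken from the 10 arrays without flaxseed, and when those 10 arrays were normalised and fitted alone. In the mice on flaxseed 8 of the 9 bright spots were called lower after radiation, with differences over the 9 from -2.45 to -0.79. There 3.64% of all spots were called lower, and 231 of the brightest 2400 (9.63%). The mean level of the 9 spots was 11.76, 11.80, 12.67, 11.71 and 12.50 on flaxseed alone and 10.31, 11.31, 9.74, 9.48 and 10.21 after both treatments. The second mouse given both treatments was again the highest of its group, and the groups did not overlap. None of the 9 passed for a difference between the diets, a count of 0 with limma (lowest adjusted p = 0.293), and 1 had an unadjusted p under 0.05.

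**Figure D3:**
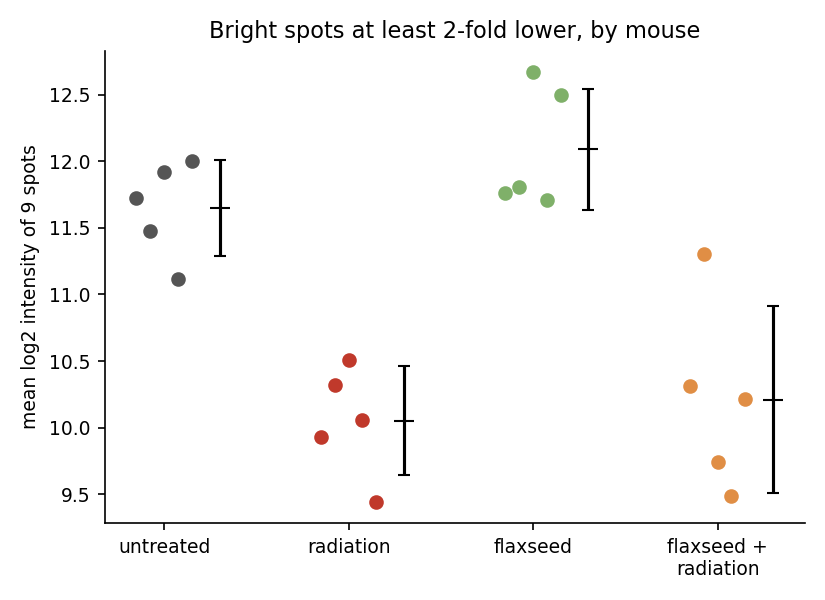
Mean log2 intensity of the 9 bright spots that were at least 2-fold lower in irradiated than in untreated mice, by mouse (points), with the group mean and SD (bars). Irradiated mice without flaxseed lie at 9.44 to 10.51 and untreated mice at 11.12 to 12.01; the 2 groups on flaxseed entered the choice of spots through the mean brightness but not through the difference.

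Most of the 9 bright spots also varied together between mice of the same group. After each group's mean was removed, they correlated with each other over the 20 mice at r = -0.11 to 0.93 (median 0.85 over 36 pairs). In 8 of them the median r with the others was at least 0.80, and in the other one it was 0.12. Over all pairs among the brightest 2400 spots the median r was -0.0024, with single pairs from -0.95 to 0.96. These correlations are a description, since the points share arrays and a normalisation. The closest of the 9 spots were 5 places apart on a grid of 120 spots a row. This grid was read from the spot numbers, and the physical layout was not given. Outside the 9, only 9 other spots followed their mean at r of at least 0.7, and 1 of these was lower at an unadjusted p under 0.05. Of all 9591 spots outside the 9, 513 were lower at that threshold.

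Whether these bright spots passed depended on the setting. In the main setting 1 of the 9 passed, and 7 did without background correction, with an offset of 10, with 75th percentile scaling, on the upper 75% of spots by level, or without untreated replicate 4. None passed, a count of 0, with plain subtraction, with an offset of 200 or on the authors' deposited intensity table (limma, lowest adjusted p 0.0837, 0.0970 and 0.154), although all 9 had an unadjusted p under 0.05 there. Without radiation replicate 3 there were 4, and without any other single mouse but untreated replicate 4 there were 0 with limma, again with all 9 at an unadjusted p under 0.05. Their median difference stayed between -1.87 and -1.43 in all of these fits and in those leaving out any 1 mouse. Because the 9 were picked by this difference on these same arrays, the choice favours both the low unadjusted p and the stable median.

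The remaining spots past 2-fold were variable ones. The lower ones other than gene0020 were a pair in which 1 or 2 untreated mice stood out. In one of them the levels of untreated mice ran from 7.51 to 12.16 with the next highest at 7.82, and irradiated mice had 7.32 to 7.96. In the other, untreated mice had 6.61 to 10.45 with the next highest at 9.14, and irradiated mice had 6.43 to 7.75. The only spot at least 2-fold higher was gene0024, named here because of this count of 1. Its levels were 8.14, 10.27, 8.35, 9.95 and 8.25 in untreated mice and 10.75, 10.35, 10.01, 11.04 and 8.41 in irradiated mice. These ranges overlapped, and the difference of 1.12 did not pass (SE 0.587, limma adjusted p = 0.494).

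**Figure D4:**
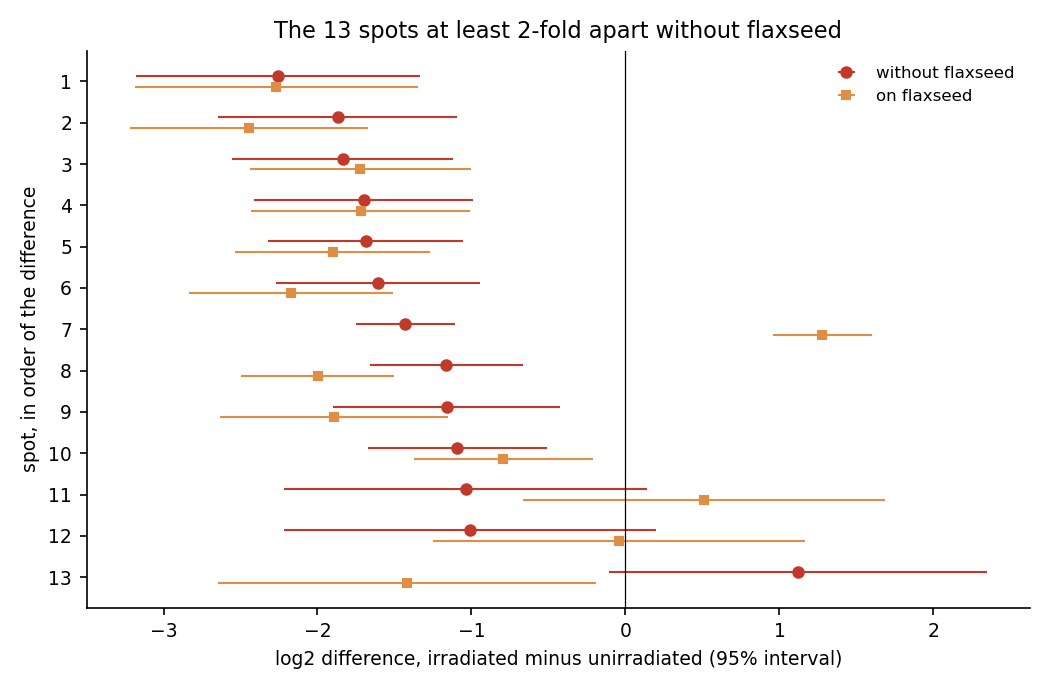
Radiation difference on the log2 scale, with its 95% interval, in mice without flaxseed (circles) and on flaxseed (squares) for the 13 spots at least 2-fold apart without flaxseed, in order of that difference. Spots 1 to 6 and 8 to 10 are the 9 bright ones, with differences below 0 on both diets, spot 7 is gene0020 and spot 13 is gene0024.

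Most spots had small differences that were measured with fair precision. The median size of a difference was 0.11 on the log2 scale with a median SE of 0.13. The 5th and 95th percentiles of all differences were -0.31 and 0.30. The 95% interval lay wholly within 2-fold either way in 9473 spots (98.7%) and within 1.5-fold in 8034 (83.7%). The offset makes differences of dim spots too small, so these intervals do not bound the fold changes of dim spots. More spots were past 2-fold with plain subtraction, as given above. Past 1.5-fold there were 64 lower and 17 higher spots. Just outside the threshold, at an adjusted p from 0.05 to 0.1, there were 19 spots, 16 lower and 3 higher.

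At an unadjusted p under 0.05 the directions were balanced, with 548 spots higher (5.71%) and 522 lower (5.44%). Together these were 1070 spots (11.1%), where about 480 would be so by chance if no spot changed. The share was 6.50% among the dimmest 2400 spots, 12.3% and 10.3% in the next brighter sets of 2400 and 15.5% among the brightest 2400. Among the brightest, 200 of these spots were lower and 171 higher. The median SE also grew with brightness, from 0.0903 in the dimmest to 0.169 in the brightest set, and the offset compresses differences of dim spots.

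Irradiated and untreated mice did not overlap in 209 spots (2.18% of 9600), 109 lower (1.14%) and 100 higher (1.04%). All 5 called spots were among them. On flaxseed, 85 of the 109 lower spots (78.0%) differed in the same direction, against 58.9% of all spots that were lower without flaxseed. Of the 100 higher spots 58 did (58.0%), against 52.8% of all higher spots. On flaxseed 837 spots passed (8.72% of 9600; 5.08% higher and 3.64% lower), and among the 109 and the 100 spots 26 and 17 passed in the same direction, or 23.9% and 17.0%. The opposite direction passed in 3 and 1 of them.

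Position on the array moved with the values. The spot numbers restart every 120 lines of the files, and each array's deviations from its group mean correlated at 0.206 over a distance of 120 lines and at 0.0056 over 60 lines. Taking 120 spots as 1 row gives 96 regions of 100 spots, whose mean radiation differences ran from -0.12 to 0.16. The regions of the 6 named spots had means of -0.09 to 0.12, all smaller in size than the spots' own differences. Next to gene0020 the 8 neighbours differed by -0.18 to 1.12, the highest being gene0024, and around gene6080 by -0.23 to 0.20. The brightest neighbour of gene0020 had a median signal of 1719 over the 10 mice, against 97.3 for gene0020 itself. The part of neighbouring signal in its values was not tested.

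When each array's regional medians were subtracted, an alternative chosen after the data were seen, the count of called spots went from 5 to 23, with 19 lower and 4 higher. All 5 called spots were among the 23. The median SE was then 0.115 against 0.130, and 6 of the 9 bright spots passed.

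**Figure D5:**
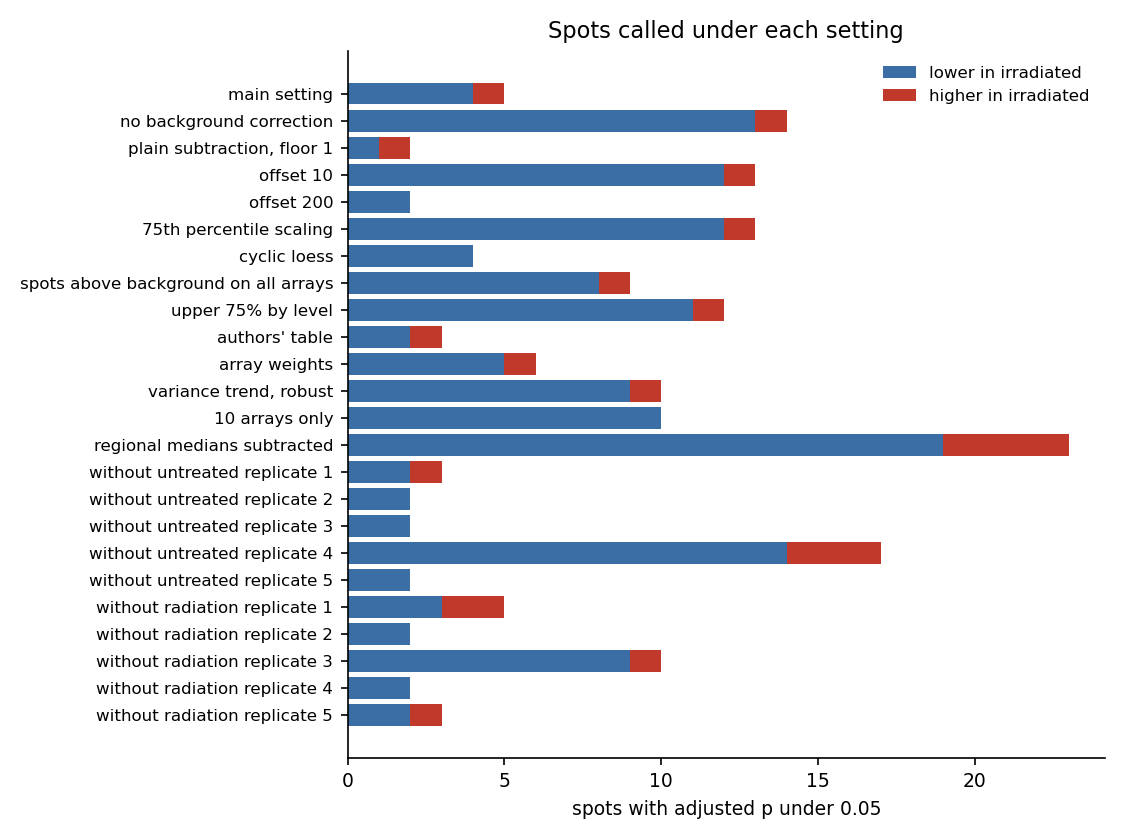
Number of spots with an adjusted p under 0.05 between irradiated and untreated mice (bars, lower in blue and higher in red) in the main setting, under 13 alternatives and without each of the 10 mice. Lower spots are the larger part in each setting except plain subtraction, where 1 spot is lower and 1 higher, and the total runs from 2 to 23.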

How the data were processed

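Each of 9600 spots has 2 linear intensity values in the deposited files, the median of the signal and that of the surrounding background, without normalisation, per the file headers. Labelling with 33P is given per the labels' protocols, and no source names the image software. The authors' deposited intensity table equals signal minus background divided by each array's median, with 4.18% of its values at the constant 0.002. Before the log2 step its values under 0.002, 590 of them below 0, were raised to 0.002. Its lines follow the order of the array files.

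Normexp correction (offset 50), log2, quantile normalisation and limma 3.58.1 in R 4.3.3 were applied to all 20 arrays, with 1 coefficient per group of 5 and Benjamini-Hochberg adjustment over 9600 spots. Mice carry separate numbers and are separate animals. The number of arrays limits precision. The procedure was tested on simulated data with 9600 spots. It called 55 of 100 spots changed 1.5-fold and 90 of 100 changed 2-fold, and also 14 unchanged spots. The changed spots came only from the upper 75% by level, and both sets of 100 were changed together, which eases the adjusted threshold. Noise SDs were taken after the offset, which compresses dim spots, and were applied to net signal without it. The shares called therefore do not carry over to all spots of the real arrays. The simulated noise was independent between spots, while deviations on the real arrays correlated at 0.232 between spots 1 line apart. Named spots were all those called, plus the higher spot with the lowest p among those not called. Gene0024 was named after its values were seen. The gene and marker lists that had been drawn up could not be applied without gene names. The comparison, lists and rules were chosen with earlier results of these data known.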

Additional observations from a re-analysis of the deposited data

Results flagged for a closer look

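The radiation difference of gene0020 differed between the diets, by 2.71 on the log2 scale with flaxseed against without (limma interaction, adjusted p = 7.04e-07). On flaxseed alone 1 of its 5 arrays was below background, and the size of the gap depends on the offset. In 38 sets of 5 mice, 4 held a value far from the other 4 mice, where about 1 in 20 would be so by chance. Untreated replicate 1 had the brightest array of its group, with a median signal of 210 against 123 to 140 and a median signal over background of 177 against 98.5 to 111. Both values come from the same array. Whole-array measures of the mice on flaxseed were not part of this check. There the mean correlation with the own group was 0.960 in replicate 4 on flaxseed alone, against 0.971 to 0.973 in the others. It was 0.972 in replicate 5 given both treatments, against 0.976 to 0.977. Among mice given both treatments, replicate 1 was low in gene1615, at 9.12 against 9.44 to 9.53, and in gene3606, at 8.50 against 8.70 to 8.77.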

How the results depend on the processing

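None of the 5 called spots, gene1615 or gene0024 changed sign under the settings run for them; gene0020 was not tested under the filter for spots above background on all arrays. The count of 5 spots called without flaxseed (4 lower, 1 higher) was 14 without background correction (13 lower), 2 with plain subtraction (1 lower), 13 with an offset of 10 (12 lower) and 2 with an offset of 200 (2 lower, 0 higher). It was 13 with 75th percentile scaling (12 lower), 4 with cyclic loess (0 higher), 9 on spots above background on all arrays (8 lower), 12 on the upper 75% of spots (11 lower) and 3 on the authors' table (2 lower). It was 10 with a variance trend and robust fitting together (9 lower), 10 on the 10 arrays alone (10 lower, 0 higher) and 23 with regional medians subtracted (19 lower, 4 higher), the last chosen after seeing the data. Fewer spots were tested under the filters (8946 and 7200), and why the counts moved was not tested for any setting. Leaving out each mouse gave 2 to 17 called, 2 to 14 lower and 0 to 3 higher. The 837 on flaxseed ranged from 601 to 918 leaving out mice. The 11 of the interaction were 6 with plain subtraction, 6 with an offset of 200, 30 with 75th percentile scaling, 73 on the authors' table, 34 with regional medians subtracted and 2 to 35 leaving out mice. The higher share of calls on flaxseed was 58.3%, 78.4% with 75th percentile scaling and 84.1% on the authors' table. No paired analysis was possible because the mouse numbers pair no animals across groups.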
